A study of Mus musculus with 4 samples.

Results

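The amyloid precursor family and the proteins that sort it were followed by bulk RNA sequencing in macrophages taken from tumours in mice. The members were picked by a rule on gene name alone, which was set with earlier results of these data known. These members number 9 of the 54532 genes in the deposited table. They are the precursors App, Aplp1 and Aplp2, the sorting receptors Sorl1 and Sort1, the Golgi adaptors Gga1, Gga2 and Gga3, and the peptide-degrading protease Ide. All 9 were among the 13932 genes that passed the filter on low counts. The cells came from glioblastoma xenografts and were sorted for CD45 and CD11b and against Gr1 and the dead-cell dye DAPI. The labels give 2 control libraries and 2 libraries for the drug MK-8931, also called verubecestat, which blocks the protease BACE1 (beta-secretase). Their protocols name vehicle as the control and a treatment of 3 days. All libraries carry the strain label "GBM mice" and the tissue label "Xenografts"; the age and background of the mice are not in the labels. The same protocols describe the treated and extracted cells as glioma stem cells, whereas the cell type entries name sorted macrophages, so how the drug reached the macrophages is not settled. The labels do not tie the libraries to different mice. The p-values therefore reflect the spread between these libraries alone, and that spread may be technical.

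The amyloid precursor protein is a membrane protein that is cut by secretases. The cut by beta-secretase followed by gamma-secretase releases the amyloid beta peptide, and the cut by alpha-secretase prevents it. Which cut is made depends on where the precursor travels. SorLA (encoded by Sorl1) and sortilin (Sort1) are VPS10-domain receptors that carry cargo between the Golgi apparatus and endosomes, and SorLA is known to hold the precursor away from the compartments in which BACE1 works. GGA proteins are clathrin adaptors that read acidic sorting signals in the tails of such receptors and of BACE1. Ide is a zinc protease that degrades insulin and the amyloid beta peptide. In brain, App is expressed widely, Aplp1 mainly in neurons, and macrophages and microglia take up and degrade the peptide.

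The sorting information lies in the cytoplasmic tails, which are the last residues of each protein, and the 60 coding bases before the stop codon are shown for the precursors and for the receptors because these are the parts by which the members meet cytosolic adaptors. They come from the principal transcripts of GENCODE M21 (GRCm38), all on the coding strand. In the precursors, capitals mark the codons of the longest run of residues that App, Aplp1 and Aplp2 share in these tails, 7 codons that hold the tyrosine-based internalisation signal of the family. In the receptors, capitals mark codons of acidic residues.
App: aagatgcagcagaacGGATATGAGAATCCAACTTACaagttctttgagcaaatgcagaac
Aplp2: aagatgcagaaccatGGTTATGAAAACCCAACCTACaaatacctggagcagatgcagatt
Aplp1: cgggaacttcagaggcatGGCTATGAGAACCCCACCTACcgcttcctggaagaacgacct
Sorl1: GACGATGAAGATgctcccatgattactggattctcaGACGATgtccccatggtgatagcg
Sort1: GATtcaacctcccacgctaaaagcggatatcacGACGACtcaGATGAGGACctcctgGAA

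The App stretch lies in the last of 16 exons on the minus strand (chr16:84955334-84955393), that of Aplp2 in the last of 17 (minus, chr9:31150874-31150933) and that of Aplp1 in the last of 17 (minus, chr7:30435296-30435355). The Sorl1 stretch lies in the last of 48 exons (minus, chr9:41968606-41968665). The Sort1 stretch spans the last 2 of 20 exons (plus, chr3:108356641-108356688 and chr3:108357229-108357240). Tails of App and Aplp2 were the more alike, with 15 of 20 codons encoding the same residue and 45 of 60 bases identical. App and Aplp1 shared 10 of 19 residues when the tails were set against each other at the capitals, and Aplp1 and Aplp2 shared 11 of 19. In the receptors, 6 of the last 20 codons of Sorl1 and 7 of those of Sort1 were acidic.

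Library totals lay between 18257930 and 20179875 counts, so absence of counts allows a level of up to 0.149 to 0.164 CPM (library-scaled counts), the level of 3 counts, for counting error only. The cells carried macrophage markers at a summed 12186 and 14534 CPM (control) and 11458 and 11341 CPM (MK-8931), with none of 10 at 0. Summed microglial markers stood at 2102 and 2351 CPM (control) and 1754 and 1969 CPM (MK-8931). Both sums were lower with MK-8931, although no gene of either list was called lower and 1 macrophage marker was called higher. Summed neutrophil markers (14 genes, 8 of 9 tested rose) stood at 466 and 420 CPM (control) and 1179 and 1844 CPM (MK-8931). S100a9, a calprotectin subunit abundant in neutrophils, had 28 and 95 counts in the control libraries and 1712 and 4555 in those with MK-8931. S100a8, its partner, had 39 and 121 against 609 and 1386 counts, and the chemokine receptor gene Cxcr2 had 29 and 16 against 1035 and 1369. Hdc, histidine decarboxylase, had 29 and 41 against 1514 and 1929 counts. Mmp9, the most abundant of the list, stood at 375 and 349 CPM against 632 and 939 CPM. Elane was at 0 in every library, and Ly6g had 14 counts in MK-8931 2 and none elsewhere. Summed monocyte markers (6 genes, 3 rose) went from 138 and 70.6 CPM to 298 and 307 CPM. Summed red cell and platelet markers (6 genes, 2 of 3 tested rose) went from 166 and 165 CPM to 335 and 431 CPM. The 2 that rose were the platelet chemokine genes Pf4 and Ppbp. These shifts between the groups run alongside every comparison below, and their part in the results was not tested. Summed fibroblast and pericyte markers (6 genes, none called) overlapped between the groups. They stood at 453 and 185 CPM in the controls and at 437 and 670 CPM with MK-8931. In bulk samples, fewer cells of a type and less RNA per cell cannot be told apart.

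App was the most abundant member in these macrophages, by the authors' deposited FPKM, which scales counts by gene length and by a factor for each library. App, the precursor itself (ENSMUSG00000022892, chr16:84949685-85173766, minus strand), had 99.4 and 111 FPKM in the controls, against 98.7 and 90.7 FPKM with MK-8931. Aplp2, its close paralogue (ENSMUSG00000031996, chr9:31149557-31211815, minus strand), had 87.5 and 92.5 FPKM in the controls, against 78.2 and 71.2 FPKM with MK-8931. By mean FPKM over all libraries App ranked 465th and Aplp2 572nd among the 13932 genes tested (percentiles 96.7 and 95.9). App was above Aplp2 in every library, and within each group their ranges did not overlap; over all 4 libraries pooled they did. Aplp1 (ENSMUSG00000006651, chr7:30434982-30445535, minus strand), the paralogue known for expression in neurons, was the lowest member at 1.88 to 2.86 FPKM, from 105 to 166 counts per library. Of 6 neuronal marker genes, Snap25 and Syt1 were at 0 counts in every library. The 6 summed to 1.47 and 0.892 CPM in the controls and to 3.05 and 5.59 CPM with MK-8931. Map2 was the most abundant of them, with 18 and 14 counts (control) and 49 and 98 counts (MK-8931).

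Among the sorting genes, Gga1 (ENSMUSG00000033128, chr15:78877190-78894585, plus strand) stood apart at 37.5 to 39.3 FPKM, and its range overlapped no other member's. Gga2 (ENSMUSG00000030872, chr7:121986722-122021222, minus strand) lay at 7.17 to 7.88 FPKM and Gga3 (ENSMUSG00000020740, chr11:115584255-115604051, minus strand) at 6.28 to 9.99 FPKM. Sort1 (ENSMUSG00000068747, chr3:108284082-108361511, plus strand) lay at 8.95 to 12.4 FPKM and Sorl1 (ENSMUSG00000049313, chr9:41964720-42124297, minus strand) at 4.71 to 9.75 FPKM. Ide (ENSMUSG00000056999, chr19:37268743-37337852, minus strand) lay at 10.5 to 13.0 FPKM. In the order Ide, Sort1, Gga3, Gga2, Sorl1, each gene's range over the 4 libraries overlapped that of the next, while Aplp1 lay below all of them. For Sorl1 and Gga2 this overlap came from pooling the groups: Sorl1 lay below Gga2 in both controls and above it in both MK-8931 libraries.

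**Figure D1:**
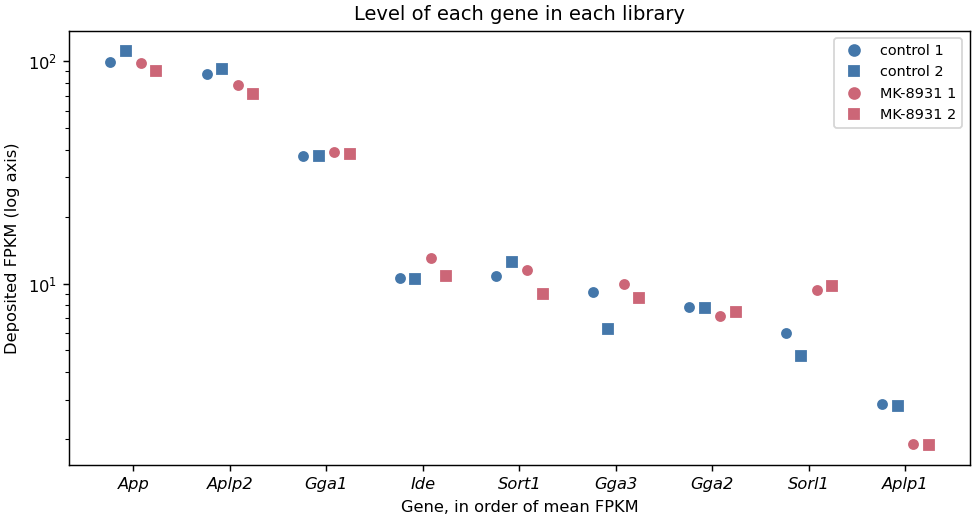
Deposited FPKM of each of the 9 genes (log axis) in the 4 libraries, with genes in order of mean FPKM; circles are replicate 1 and squares replicate 2 of each group. App lies between 90.7 and 111 FPKM, Aplp2 between 71.2 and 92.5, Gga1 near 38, and the 2 MK-8931 points of Sorl1 lie above both of its control points.

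The order of these levels depends in part on the length used. For 8 of the 9 members the deposited length is that of all annotated exons joined, 12996 bases for App, while its principal transcript has 3176. Scaled to the principal transcript, a choice made with the data in view, App had 371 to 455 FPKM and Aplp2 115 to 150 FPKM, and the pooled ranges no longer overlapped. App's share of the summed FPKM of the 3 precursors, averaged over the libraries, was then 75.1% ± 1.05 in place of 54.2% ± 1.40 (SD over 4 libraries). Ide and Sort1 then followed Gga2 and Gga3, and Sorl1 and Aplp1 stayed the lowest.

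With MK-8931, none of the 9 members passed the threshold of an adjusted p of 0.05 by edgeR's quasi-likelihood test, against 139 of 13932 genes (0.998%) in all, 0.861% higher and 0.136% lower. Sorl1 came nearest and was higher in both MK-8931 libraries. Unadjusted, 2 of the 9 had a p under 0.05, Sorl1 and Aplp1, against 10.8% of all genes tested. With limma-voom 1 of the 9 passed (1.08% of all genes), and with DESeq2 1 of the 9 (2.56%), Sorl1 in both. In 7 of 9 members the CPM values of the groups did not overlap, 3 higher and 4 lower with MK-8931. The same held for 41.2% of all genes tested, 21.2% higher and 20.0% lower. The median log2 fold change of the members was −0.09, and that of all genes tested was 0.00 to 2 decimals. Outside Sorl1, the fitted log2 fold changes lay between −0.58 and 0.28.

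**Figure D2:**
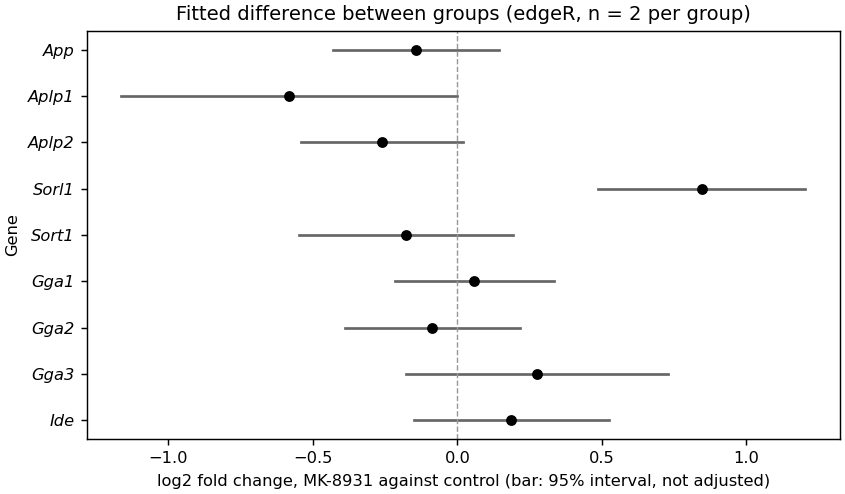
Fitted log2 fold change of each member, MK-8931 against control (points), with its 95% interval, not adjusted for the number of genes (bars); the dashed line is no difference. The interval of Sorl1 runs from 0.49 to 1.20 and lies clear of 0, that of Aplp1 ends at −0.00022, and those of the other 7 members cover 0.

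Each precursor had lower values with MK-8931, and no difference passed the test. App stood at 1299 and 1443 CPM in the controls and at 1292 and 1189 CPM with MK-8931. The lower control and the higher MK-8931 library were nearly level, so the groups were separated by less than the controls differed from each other. The log2 fold change was −0.14 (SE 0.13, 95% interval −0.43 to 0.14, adjusted p = 0.780 by edgeR's quasi-likelihood test). Aplp2 stood at 517 and 542 CPM in the controls and at 463 and 421 CPM with MK-8931. Both MK-8931 values lay below both controls, with a log2 fold change of −0.26 (SE 0.12, interval −0.54 to 0.02, edgeR adjusted p = 0.514). Aplp1 stood at 8.67 and 8.48 CPM in the controls and at 5.75 and 5.71 CPM with MK-8931. The replicates of Aplp1 lay close together in each group, with counts of 161 and 166 (control) against 112 and 105 (MK-8931). The fitted change, −0.58 on the log2 scale, was the lowest of the members (SE 0.26, interval −1.16 to −0.00022) and did not pass (edgeR adjusted p = 0.463). The macrophage marker C1qa, a complement subunit, also had lower values with MK-8931 (2173 and 2359 CPM against 2692 and 4177 CPM, edgeR adjusted p = 0.270). Of the 10 macrophage markers 1 rose and none fell. Itgam, the CD11b gene, was the one that rose (328 and 345 CPM with MK-8931 against 220 and 180 CPM, edgeR adjusted p = 0.0485), and Mrc1, the mannose receptor, stood at 1372 and 1148 CPM against 1017 and 865 CPM (edgeR adjusted p = 0.298). Their part in the precursors' values was not tested.

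The balance of the precursors moved little. App made up 52.4% and 53.9% of the summed FPKM of the 3 precursors in the controls, against 55.2% and 55.4% with MK-8931. Aplp2 made up 46.1% and 44.8% in the controls, against 43.8% and 43.5% with MK-8931, and Aplp1 1.06% to 1.51% in all. The ratio of App to Aplp2 within a library does not depend on how libraries are scaled. It was 1.14 and 1.20 in the controls, against 1.26 and 1.27 with MK-8931, a mean difference of 0.12 on the log2 scale. The groups did not overlap, and the exact permutation test gave p = 0.333 (two-sided), the smallest that 2 libraries against 2 allow.

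Sorl1, the receptor that sorts the precursor, had the largest difference among the members. It stood at 68.4 and 53.1 CPM in the controls and at 107 and 111 CPM with MK-8931, from 1271 and 1040 counts against 2086 and 2048. Both MK-8931 libraries lay above both controls, and the controls differed from each other more than the MK-8931 libraries did. The mean went from 60.8 ± 10.8 to 109 ± 3.08 CPM (SD, n = 2), a fitted 1.80-fold difference. The log2 fold change was 0.85 (SE 0.16, 95% interval 0.49 to 1.20), which ranked 144th by p among all genes tested and missed the threshold (edgeR adjusted p = 0.0505). The authors' deposited table gives Sorl1 a log2 fold change of 0.84 and an adjusted p of 6.41e-04, and an adjusted p of at least 0.627 to each of the other 8 members. The same deposited values put 336 of 22381 genes (1.5%) under 0.05. The call for Sorl1 turned on the method: it passed with limma-voom (adjusted p = 0.0413), with DESeq2 (5.94e-04) and with no filter on low counts (2.78e-05). It passed also with a replicate block (0.00126, with 5.33% of all genes called), although the replicate numbers are not shown to pair the libraries. It also passed with either control left out (3.77e-05 without control 1 and 0.0360 without control 2), but not without MK-8931 1 (0.101) or without MK-8931 2 (0.188). The log2 fold change ran from 0.67 without control 2 to 1.03 without control 1. Under these settings the share of all genes called also moved, to 2.29% with no filter, 5.13% without control 1, 1.47% without control 2, 1.03% without MK-8931 1 and 0.635% without MK-8931 2. With library size alone in place of TMM, Sorl1 had an adjusted p of 0.0658, and 0.926% of genes were called.

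For sortilin the groups overlapped. Sort1, which binds progranulin, neurotrophin precursors and lipoprotein lipase, stood at 82.6 and 93.9 CPM in the controls and at 87.7 and 68.3 CPM with MK-8931. MK-8931 1 lay between the controls, and the log2 fold change was −0.18 (SE 0.16, interval −0.55 to 0.19, edgeR adjusted p = 0.791). The ratio of Sorl1 to Sort1 by FPKM was 0.554 and 0.378 in the controls, against 0.816 and 1.09 with MK-8931. Sorl1 was the lesser of the pair in both controls and in MK-8931 1 and slightly the greater in MK-8931 2. The mean difference was 1.04 on the log2 scale, a 2.06-fold shift, with no overlap between groups (exact permutation test, two-sided p = 0.333, the smallest possible with 2 against 2). Of all 5 VPS10-domain receptors, Sorl1 made up 35.3% and 27.3% of the summed FPKM in the controls, against 44.7% and 51.8% with MK-8931. Sorcs2 made up at most 1.00%, and Sorcs1 and Sorcs3 had no count in any library.

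**Figure D3:**
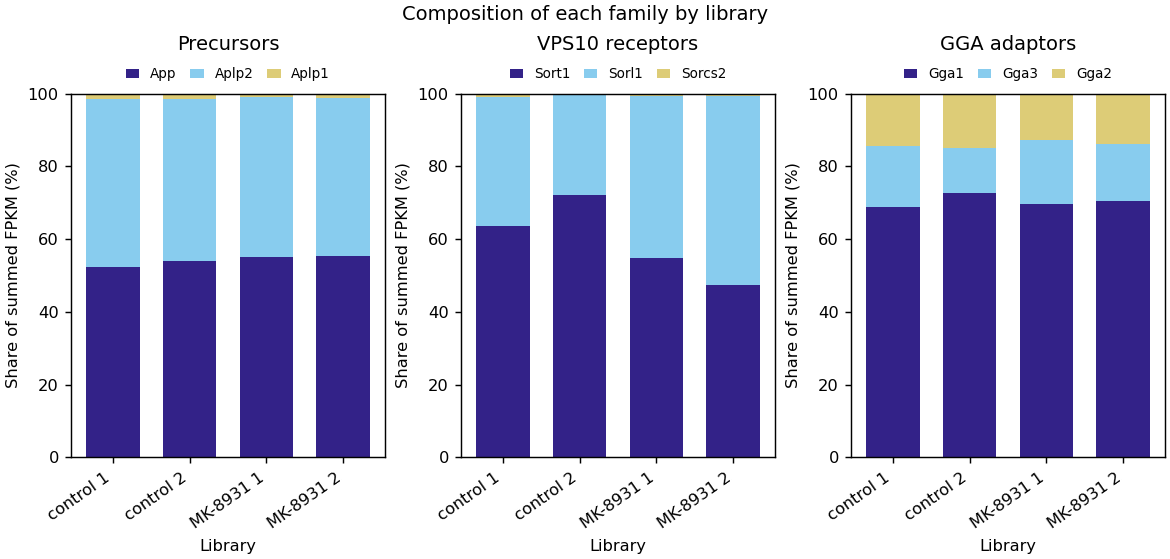
Share of each gene in the summed FPKM (percent) of the precursors, the VPS10-domain receptors and the GGA adaptors, 1 bar per library. The share of Sorl1 is 35.3% and 27.3% in the controls, against 44.7% and 51.8% with MK-8931. App stays between 52.4% and 55.4% and Gga1 between 68.7% and 72.8%.

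The precursor stood in a lower ratio to its sorting receptor in the MK-8931 libraries. App exceeded Sorl1 by 16.5 and 23.7 times by FPKM in the controls and by 10.5 and 9.30 times with MK-8931. The size of these ratios depends on the gene lengths used and would be larger with principal transcript lengths. Their difference between the groups does not depend on length. The difference of −1.0 on the log2 scale came with no overlap between the groups (exact permutation test, two-sided p = 0.333, the smallest possible). Sorl1 and the summed markers of neutrophils and monocytes were higher with MK-8931. Csf3r, the G-CSF receptor, stood at 64.2 and 56.5 CPM in the controls and at 217 and 292 CPM with MK-8931. Ccr2, the monocyte chemokine receptor, stood at 69.0 and 40.0 CPM in the controls and at 133 and 145 CPM with MK-8931. Csf3r and Ccr2 ranked the 4 libraries in the same order as Sorl1. Not every neutrophil marker did: S100a8 and S100a9 had more counts in control 2 than in control 1. Whether neutrophils or monocytes contributed Sorl1 transcripts was not tested.

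**Figure D4:**
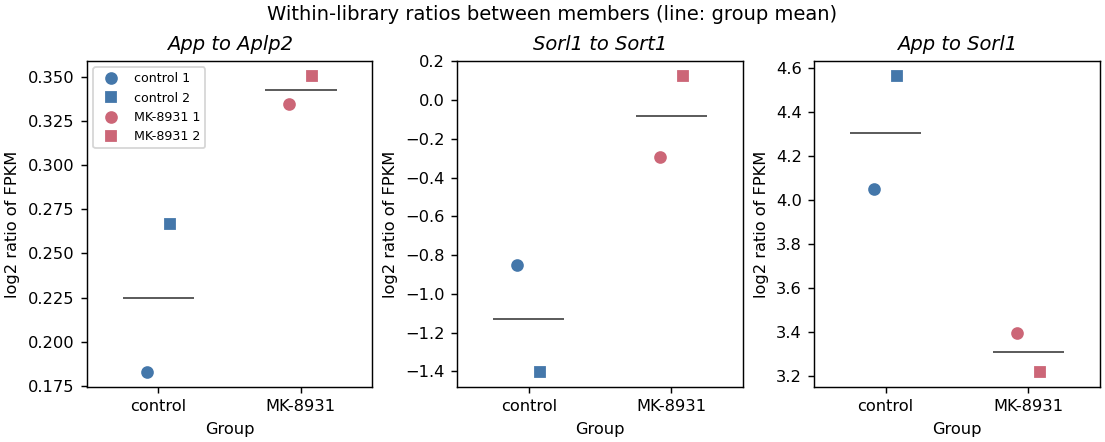
The log2 ratio of FPKM within each library for App to Aplp2, Sorl1 to Sort1 and App to Sorl1, by group (circles are replicate 1, squares replicate 2, lines the group means). The groups do not overlap in any of the 3 ratios; their means differ by 0.12, 1.04 and −1.0, and each axis has its own range.

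The GGA adaptors showed small differences. Gga1 stood at 142 and 141 CPM in the controls and at 149 and 146 CPM with MK-8931. The replicates lay very close together, and the log2 fold change was 0.06 (interval −0.22 to 0.33, edgeR adjusted p = 0.930). Gga2 stood at 77.4 and 75.6 CPM in the controls and at 70.5 and 73.6 CPM with MK-8931, a log2 fold change of −0.09 (interval −0.39 to 0.22, edgeR adjusted p = 0.898). The intervals of Gga1 and Gga2 do not show that these genes were equal in the groups. Gga3, the adaptor known to bring BACE1 to lysosomes, stood at 57.8 and 39.1 CPM in the controls and at 62.8 and 54.4 CPM with MK-8931. The groups overlapped because control 1 lay above MK-8931 2, and the difference rested on control 2. The log2 fold change was 0.28 (SE 0.20, interval −0.18 to 0.73, edgeR adjusted p = 0.717), 0.02 without control 2 and 0.58 without control 1. Exons of Gga3 overlap those of Mrps7, on the opposite strand, over 127 bases or 2.03% of its exonic length, and whether the counting used strand is not given in the sources used here. Gga1 made up 68.7% to 72.8% of the summed FPKM of the 3 adaptors in every library.

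Ide stood at 61.7 and 60.8 CPM in the controls and at 76.0 and 63.2 CPM with MK-8931. MK-8931 1 was the high library, and MK-8931 2 lay just above the controls. The log2 fold change was 0.19 (SE 0.15, interval −0.15 to 0.52, edgeR adjusted p = 0.751), and 0.04 without MK-8931 1. For App, Sorl1, Sort1 and Gga2, an antisense gene overlapped 0.869% to 7.37% of the exonic bases and had at most 7 counts in any library.

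The genes whose values over the 4 libraries most resembled those of App and Sorl1 were sought among 9696 others of at least 5 CPM, by the root mean square difference of centred log2 CPM. Nearest to App were Dpy19l1 (0.0046), Phtf2 (0.0072) and Fxr1 (0.0082), each with a log2 fold change between −0.15 and −0.14. Nearest to Sorl1 were Birc3 (0.013), Prkar1b (0.023) and F3 (0.034). Birc3, an inhibitor of apoptosis, stood at 38.4 and 30.3 CPM in the controls and at 60.8 and 64.1 CPM with MK-8931 (edgeR adjusted p = 0.0517). With 4 libraries such likeness is a description of these samples.

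The other genes of the pathway gave 1 call in 68 tested, against 0.998% of all genes. It was Lpl, lipoprotein lipase, a ligand of both sortilin and SorLA, which rose from 91.8 ± 1.21 to 151 ± 1.81 CPM (SD, n = 2; log2 fold change 0.72, SE 0.12, edgeR adjusted p = 0.0360). The call was lost without MK-8931 1 (adjusted p = 0.159) or without MK-8931 2 (0.242), where the log2 fold change was 0.72 and 0.69. In 41 of the 68 the groups did not overlap, 20 higher and 21 lower, against 41.2% of all genes, and their median log2 fold change was −0.03.

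Among the secretases, which cut the precursor, 0 of 11 tested passed, and the list's median was −0.01. At an unadjusted p under 0.05 the count was also 0, against 10.8% of all genes tested. Bace1, the drug's target, stood at 11.9 and 7.05 CPM in the controls and at 8.77 and 9.19 CPM with MK-8931 (edgeR adjusted p = 0.965). Psen2, a catalytic subunit of gamma-secretase, had the smallest p of those higher (log2 fold change 0.16, edgeR adjusted p = 0.774). Aph1b, another subunit, had the smallest p of those lower (log2 fold change −0.41, edgeR adjusted p = 0.552). Of 12 proteins that bind the precursor, none passed and 2 had an unadjusted p under 0.05, against 10.8% of all genes (median 0.14). Numb, an endocytic adaptor, averaged 40.4 ± 0.642 CPM (control) and 52.8 ± 3.69 CPM (MK-8931) (edgeR adjusted p = 0.356). Snx17, a sorting nexin that recycles receptors, was at 163 ± 20.7 and 136 ± 7.83 CPM (edgeR adjusted p = 0.574).

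In the list of retromer and other VPS10 receptors, none of 11 passed (median −0.13). An unadjusted p under 0.05 was reached by 1, against 10.8% of all genes. Snx6, a sorting nexin of the retromer coat, was at 115 ± 6.67 and 147 ± 8.02 CPM (edgeR adjusted p = 0.338). Vps35, the retromer core subunit that binds cargo, was at 314 ± 37.0 and 276 ± 5.47 CPM (edgeR adjusted p = 0.715). Of the 15 clathrin, AP-1 and ARF partners of the GGA adaptors none passed (median −0.04). Again 1 gene had an unadjusted p under 0.05, against 10.8% of all genes. That gene was Igf2r, a mannose 6-phosphate receptor that GGA proteins carry, at 157 ± 17.5 and 204 ± 7.24 CPM (log2 fold change 0.38, edgeR adjusted p = 0.308). M6pr, the other such receptor in the list, was at 529 ± 57.7 and 453 ± 12.8 CPM (log2 fold change −0.22, edgeR adjusted p = 0.627). Picalm, an endocytic clathrin adaptor, was at 1363 ± 95.1 and 1175 ± 48.1 CPM (edgeR adjusted p = 0.619).

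Of 9 ligands of the receptors, 3 were expressed highly enough to test. Besides Lpl these were Psap, prosaposin, and Grn, progranulin, which sortilin takes up. Grn averaged 3971 ± 189 CPM (control) and 3278 ± 328 CPM (MK-8931) (edgeR adjusted p = 0.514). In the list of peptide degradation and uptake, 0 of 16 passed (median −0.14). Unadjusted, 5 had a p under 0.05, against 10.8% of all genes tested, and these went both ways. Ece1 (log2 fold change 0.63) and Scarb1 (0.53) were among those higher with MK-8931. Ctsd (−0.43) and Apoe were among those lower. Apoe, a lipid carrier that binds the peptide, was at 9758 ± 1792 and 6472 ± 349 CPM (−0.59, edgeR adjusted p = 0.141). With DESeq2 Apoe passed (adjusted p = 0.0137), and 3 of the 68 genes in all. With limma-voom Lpl alone of the 68 passed.

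**Figure D5:**
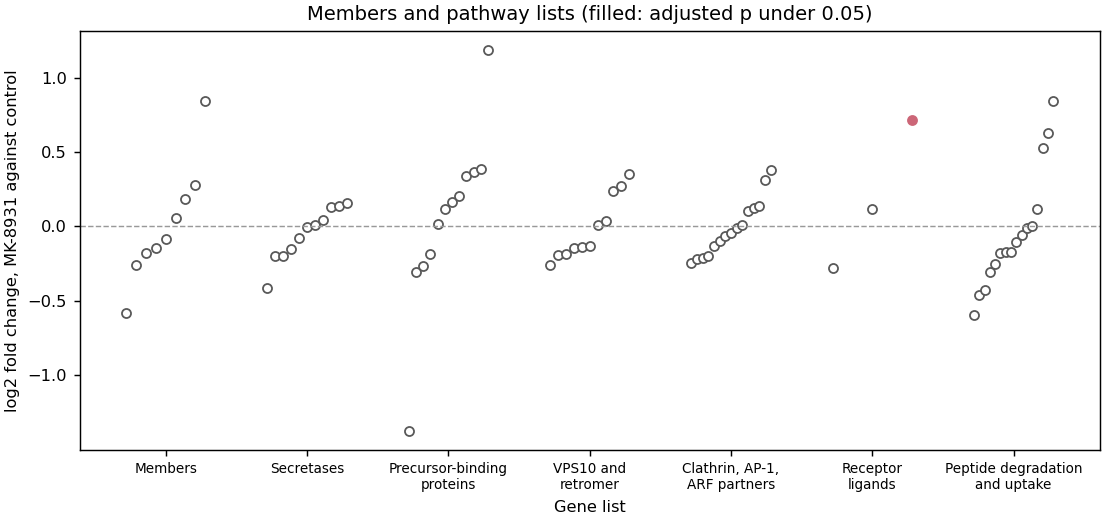
Log2 fold change, MK-8931 against control, of each member and each tested gene of the 6 pathway lists, 1 point per gene sorted within its list; filled points passed an edgeR adjusted p of 0.05. The filled point is Lpl at 0.72, and Sorl1 is the highest point of the members at 0.85.

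The promoters of Sorl1, the member with the largest difference, and of App, the most abundant, are shown as the 250 bases before the annotated start, from RefSeq (GRCm38.p6), which had an entry for 8 of the 9 members. Both genes lie on the minus strand, and capitals mark matches on either strand to GGGCGG (a GC box), GAGGAA (an ETS core), TGACTCA (AP-1), CACGTG (an E-box) and TGACGTCA (CRE).
Sorl1, chr9:42124298-42124547: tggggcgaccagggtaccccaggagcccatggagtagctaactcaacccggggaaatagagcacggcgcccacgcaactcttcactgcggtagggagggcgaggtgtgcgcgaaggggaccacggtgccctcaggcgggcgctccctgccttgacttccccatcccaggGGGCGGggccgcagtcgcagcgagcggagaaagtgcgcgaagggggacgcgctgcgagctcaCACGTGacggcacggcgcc
App, chr16:85173708-85173957: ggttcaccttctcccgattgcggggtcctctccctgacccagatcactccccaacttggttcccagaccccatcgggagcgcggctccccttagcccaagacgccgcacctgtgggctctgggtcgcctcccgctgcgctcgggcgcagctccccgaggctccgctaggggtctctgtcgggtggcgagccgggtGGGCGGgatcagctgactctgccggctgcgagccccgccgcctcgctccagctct

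Both windows held 1 GC box, as did 32.7% of 32851 promoter windows of this length at least once. The deposited coordinates of App reach chr16:85173766, beyond the RefSeq start. The end of its window, with the GC box, therefore lies inside the gene as deposited. The Sorl1 window also held 1 E-box, present in 6.02% of windows, and neither held an ETS core (23.3%), an AP-1 match (4.46%) or a CRE match (1.55%). Both were rich in CpG, with 26 in the Sorl1 window and 23 in that of App, against a median of 6. Matches describe these letters and show neither binding nor a cause of the measured levels. A second, internal RefSeq start of Sorl1 is annotated, and counts per gene do not tell transcripts apart.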

How the data were processed

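The authors deposited 1 table with whole-number read counts for each gene and library, per the file headers. Its FPKM columns, also the authors', equal counts scaled by library and by gene length. The authors' deposited table adds scaled counts, which equal counts over DESeq2 size factors (0.975 to 1.03), with a log2 fold change and p-values whose test is not named. The submitters' processing notes name CASAVA and mm9, but 53499 of 54409 shared gene identifiers (98.3%) have GENCODE M21 coordinates, so positions are GRCm38. Aligner and counter: not given in the sources used here.

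Counts were tested with edgeR 4.0.16 in R 4.3.3 (filterByExpr with a minimum count of 10, TMM, robust glmQLFit, glmQLFTest, Benjamini-Hochberg over 13932 genes, threshold 0.05). CPM is TMM-scaled, except summed markers. SE is the absolute log2 fold change over the square root of F. Alternatives were DESeq2 1.42.0, limma-voom (limma 3.58.1), library size alone, no filter, a replicate block and leaving out each library. The procedure was checked on simulated counts. Replicates were distinct libraries: counts differed beyond sampling noise (chi-square over degrees of freedom 26.8 for controls and 15.7 for MK-8931). Members, lists and rules were chosen with earlier results of these data known. Named were all members and Bace1, per list the called genes and the smallest p in each direction, the 3 genes nearest to App and to Sorl1, and, where a marker sum moved with a result, its most abundant and defining genes. Csf3r, S100a8, S100a9, Cxcr2, Hdc, Pf4, Ppbp, Itgam, Mrc1, Psap, Snap25, Syt1, Map2, M6pr, Ece1, Scarb1 and Ctsd were named after their values were seen. One gene that this rule names is not reported here.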

Additional observations from a re-analysis of the deposited data

How the results depend on the processing

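The 8 members other than Sorl1 kept direction and side of the threshold under all 9 alternatives, with adjusted p from 0.0711 (Gga3 without control 1) to 0.999 (Gga1 without MK-8931 1). Sorl1 kept its direction under all 9 and passed under 6, at a log2 fold change of 0.83 with no filter, 0.86 with limma-voom and 0.84 with DESeq2; leaving out 1 library gave 0.67 to 1.03. Members called higher were 1 under those settings and 0 to 1 with a library left out. Genes called higher numbered 366 with no filter and 262 with DESeq2, against 120, and 85 (without MK-8931 2) to 520 (without control 1). Genes called lower numbered 176 with no filter, 30 with limma-voom and 95 with DESeq2, against 19, and 10 (without MK-8931 2) to 243 (without control 1). Pathway genes called higher numbered 2 with no filter and 2 with DESeq2, and 0 to 2 with a library left out; lower, 2 with no filter and 1 with DESeq2, and 0 to 3. With a replicate block, Sorl1 had 0.85 (adjusted p = 0.00126), 1 member, 468 higher and 275 lower genes, and 4 higher and 2 lower pathway genes passed. Replicate numbers are not shown to pair the samples: deviations of control 1 and MK-8931 1 correlated at r = 0.197 over genes, with 2 pairs. With principal transcript lengths, chosen after seeing the data, App's share was 75.1%. The cause of these shifts was not tested. The exact permutation test of a ratio over 2 libraries against 2 cannot go below p = 0.333.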
